A study of Mus musculus with 6 samples.

Results

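The BCL2 family genes were followed in RAW 264.7 cells, an established mouse macrophage line. Treated cells had received 100 ng/ml of lipopolysaccharide (LPS), the bacterial outer membrane lipid that macrophages sense, for 48 h. They were given LPS-binding protein (LBP), a serum protein that passes LPS to its receptors, at 100 pM together with it. Their partners were cells left untreated over the same time. Members were the probes whose platform gene symbol was Bcl2, Bcl2a1a, Bcl2l1, Bcl2l11, Mcl1, Bax, Bak1, Bid, Bad or Bbc3. There were 17 such probes of 16281 on the array, for 9 of the 10 genes. No probe carried the symbol Bax, and Bax was not analysed here. Of the 17 probes, 16 had a nonzero value on all 6 arrays, as had 12724 of all 16281 probes.

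RNA of treated and untreated cells was hybridised together on 6 two-colour arrays. On 3 arrays (sets 1, 2 and 3) the treated RNA carried the red dye Cy5 and on the other 3 arrays, again sets 1 to 3, the green dye Cy3. Both RNAs came from a single cell line, and part of the labels write its name as RAW 264.4. Values are log ratios of treated over untreated cells on each array, read as base 2, with the sign turned where the treated RNA was in Cy3. A ratio says nothing about the level of a gene, and less RNA per cell cannot be told apart from fewer cells that express it.

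The BCL2 family decides whether a cell opens the outer membrane of its mitochondria and dies by apoptosis. Pro-survival members hold the others in check. The effectors BAX and BAK1 form the pores that release cytochrome c, and the BH3-only members sense damage, lost growth factors or death receptor signals and set the effectors free. In macrophages the pro-survival gene Bcl2a1a, also called A1, is known as a target of NF-kB, the transcription factor that LPS activates.

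After treatment 7 of the 16 tested member probes were higher and 1 was lower (limma, Benjamini-Hochberg adjusted p under 0.05 over all 12724 probes). Among all probes tested 14.8% were called higher and 12.2% lower. Bcl2a1a rose most, by 1.97 ± 0.10 (SD of the 3 set means), or 3.92-fold if the base is 2. The pro-survival gene Mcl1 rose on both of its probes. The BH3-only gene Bcl2l11, which encodes BIM, was called higher on both of its own. The second Bcl2l11 probe, however, stood at 0.82 with treated RNA in Cy3 and at 0.02 with it in Cy5. Bcl2l1, which encodes BCL-X, rose on 1 of 4 probes, and the 2 probes of the BH3-only gene Bad were called in opposite directions. Bcl2, Bak1, Bid and Bbc3 were not called. A sign shared by all 6 arrays was seen for 6 member probes upward and 3 downward, against 16.1% and 14.1% of all probes tested. The median over the 16 member probes was 0.04, and over all probes tested it was -0.01.

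**Figure D1:**
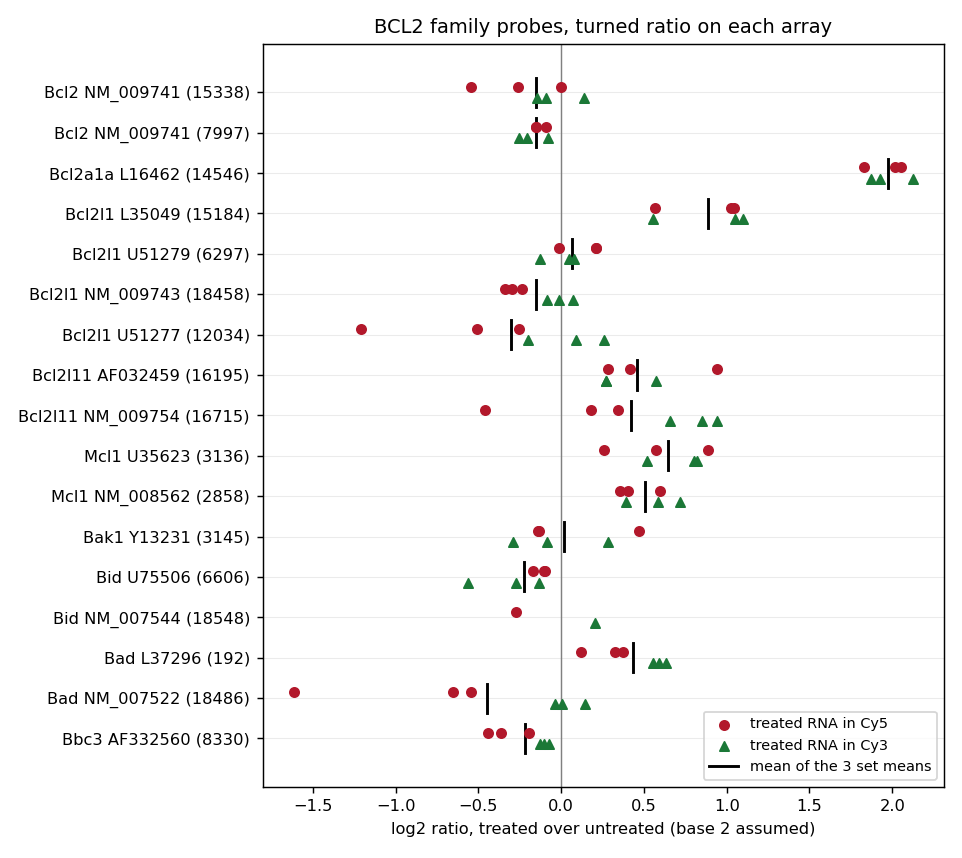
Log2 ratio of treated over untreated cells for the 17 member probes. Circles are arrays with treated RNA in Cy5, triangles arrays with treated RNA in Cy3, and black bars the mean of the 3 set means; ratios listed at 0 are left out. All 6 values of Bcl2a1a lie between 1.83 and 2.13, to the right of every other member probe, and the probes of Bcl2l1 and of Bad lie on both sides of 0.

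Bcl2a1a was measured by 1 probe, annotated to L16462. On the arrays with the treated RNA in red, called the Cy5 arrays, sets 1, 2 and 3 gave 2.02, 2.05 and 1.83. On the Cy3 arrays, with the treated RNA in green, they gave 2.13, 1.87 and 1.93. All 6 arrays were high and the orientations overlapped, at means of 1.97 ± 0.12 and 1.98 ± 0.13 (SD, n = 3 arrays). The adjusted p was 1.9e-06 (limma), and the probe stood 121st from the top of the 12724. On every array it lay above the Bcl2l1 probe L35049, by 0.83 to 1.37, and above the Mcl1 probe U35623, by 1.06 to 1.57.

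The mouse has several A1 genes that are close copies. Probes annotated to Bcl2a1c (U23779) and Bcl2a1d (NM_007536) rose by 1.95 ± 0.18 and 1.94 ± 0.19 (adjusted p = 3.53e-06 and 3.75e-06, limma). Bcl2a1d gave 2.11, 2.17 and 1.83 on the Cy5 arrays and 1.95, 1.98 and 1.63 on the Cy3 arrays. The Bcl2a1c probe gave 2.00, 1.82 and 1.49 on the Cy5 arrays and 2.18, 2.18 and 2.01 on the Cy3 arrays. The 3 probes were not ordered: Bcl2a1a exceeded Bcl2a1d on 3 of 6 arrays, with a mean difference of 0.03 ± 0.13, and exceeded Bcl2a1c on 3 of 6, with a mean difference of 0.02 ± 0.09. Probe sequences were not used here, so these 3 ratios may be readings of 1 transcript or of several and are uncertain as to which copy they measure.

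The other A1 probes gave no such value. The Bcl2a1b probe (NM_007534) gave 0.25, -0.98 and 1.51 on the Cy5 arrays. On the Cy3 arrays it was listed at 0 in set 1, and sets 2 and 3 gave 1.46 and -0.27. Its arrays differed in sign and it was not tested. A second Bcl2a1c probe (NM_007535) was listed at 0 on 3 arrays and read -0.11, -0.36 and 1.24 on the rest. The 2 Bcl2a1c probes thus carry 1 gene symbol and different readings.

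**Figure D2:**
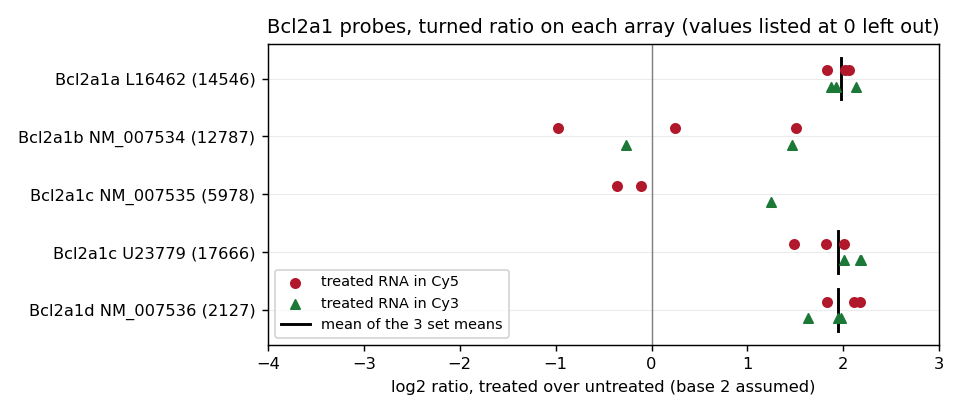
Log2 ratio of treated over untreated cells on each array for the 5 probes annotated to Bcl2a1a, Bcl2a1b, Bcl2a1c and Bcl2a1d. Circles are arrays with treated RNA in Cy5, triangles arrays with treated RNA in Cy3, and black bars the mean of the 3 set means, drawn where all 6 arrays have a value. The probes L16462, U23779 and NM_007536 lie together between 1.49 and 2.18, and the 2 others scatter between -0.98 and 1.51.

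The genes to which these 3 probes are annotated have similar upstream sequences. The 250 bases before the RefSeq start (GRCm38.p6) of Bcl2a1a, at chr9:88956670-88956919 on the plus strand, and of Bcl2a1d, at chr9:88731851-88732100 on the minus strand, are shown because probes annotated to these genes gave like ratios. Capitals mark GAGGAAGT, a form of the site bound by ETS factors such as the macrophage factor PU.1.
Bcl2a1a: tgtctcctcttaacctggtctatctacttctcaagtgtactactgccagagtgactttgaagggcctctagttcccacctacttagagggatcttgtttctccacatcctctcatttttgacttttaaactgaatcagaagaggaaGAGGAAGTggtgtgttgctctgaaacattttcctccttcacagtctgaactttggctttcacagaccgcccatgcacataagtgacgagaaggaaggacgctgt
Bcl2a1d: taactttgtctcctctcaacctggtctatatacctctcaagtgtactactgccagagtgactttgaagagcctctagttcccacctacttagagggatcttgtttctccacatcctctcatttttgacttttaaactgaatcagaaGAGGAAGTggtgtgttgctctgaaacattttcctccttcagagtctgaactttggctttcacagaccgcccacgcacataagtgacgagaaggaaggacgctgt
Over windows of 300 bases (250 before and 50 after the start), Bcl2a1a and Bcl2a1d aligned over 294 bases, 98% of them identical. Bcl2a1a aligned with Bcl2a1b over 256 bases at 99.2% identity and with Bcl2a1c over 190 bases at 95.8%. The percentage was thus highest for Bcl2a1b, whose probe gave scattered ratios. Whether upstream likeness bears on the ratios was not tested.

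GAGGAAGT was present in the windows of all 4 A1 genes and in 3.2% of the 32851 RefSeq promoter windows (both strands searched). In Bcl2a1a and Bcl2a1d it lay 104 to 97 bases before the start. The pattern TGANTCA is looser than the AP-1 site, as it allows any base in the centre. It was found as TGAATCA in Bcl2a1a, Bcl2a1b and Bcl2a1d, and with any centre base in 7.81% of all windows. Among the members, GAGGAAGT also occurred in the window of Bak1 and in 1 of 2 windows of Bad. A kappaB consensus match, present in 8.46% of all windows, occurred in 1 of 3 windows of Bcl2l1 and 1 of 3 of Bbc3. The windows of the 4 A1 genes, Bcl2a1a among them, held no such match. The STAT site TTCNNNGAA, found in 8.3% of all windows, had no match in the member windows. The matches describe letters in these windows and say nothing about binding.

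The genes whose 6 ratios lay nearest to those of Bcl2a1a were Bcl2a1d, the leukocyte receptor gene Lilr4b and the MHC class I gene H2-T23, with root mean square differences of 0.16, 0.19 and 0.20 over the 6 arrays, among 11058 probes compared. Their means were 1.94, 2.11 and 1.80.

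Mcl1, which encodes a short-lived pro-survival protein, rose on both probes. The probe annotated to U35623 gave 0.57, 0.89 and 0.26 on the Cy5 arrays and 0.80, 0.82 and 0.52 on the Cy3 arrays. Its mean was 0.64 ± 0.23, 1.56-fold (adjusted p = 0.00293, limma). The probe annotated to NM_008562 gave 0.41, 0.60 and 0.35 on the Cy5 arrays and 0.59, 0.72 and 0.39 on the Cy3 arrays, with a mean of 0.51 ± 0.14 (adjusted p = 0.00462). On each probe all 6 arrays were above 0 and set 3 was lowest in both orientations. The 2 probes differed by 0.13 ± 0.10, with U35623 higher on 5 of 6 arrays. When exact zeros were kept as values, the adjusted p-values were 0.0822 and 0.0617 and neither probe was called.

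Bcl2l1 gives rise to the long pro-survival protein BCL-XL and, by splicing, to shorter forms. Its probe annotated to L35049 gave 1.05, 1.02 and 0.57 on the Cy5 arrays and 1.10, 1.05 and 0.55 on the Cy3 arrays. Both orientations were alike and set 3 was low in both. The mean was 0.89 ± 0.29, 1.85-fold (adjusted p = 8.42e-04, limma), and with zeros kept the adjusted p was 0.0706.

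The other 3 Bcl2l1 probes were not called. U51279 gave 0.21, -0.01 and 0.21 on the Cy5 arrays and 0.08, 0.05 and -0.13 on the Cy3 arrays, with a mean of 0.07 ± 0.07. NM_009743 gave -0.34, -0.30 and -0.24 on the Cy5 arrays and 0.07, -0.09 and -0.01 on the Cy3 arrays, with a mean of -0.15 ± 0.04. These ratios lay near 0, and those of NM_009743 were lower with treated RNA in Cy5 in each set. U51277 gave -0.51, -0.26 and -1.21 on the Cy5 arrays and 0.26, -0.20 and 0.09 on the Cy3 arrays, with a mean of -0.30 ± 0.23 (adjusted p = 0.0652, and 0.0423 without set 1, where its mean was -0.39). Without the Cy3 array of set 1 it stood at -0.43 and was called as well (adjusted p = 0.0194).

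The L35049 probe was above each of the other Bcl2l1 probes on 6 of 6 arrays. The mean differences were 0.82 ± 0.27 to U51279, 1.04 ± 0.31 to NM_009743 and 1.19 ± 0.07 to U51277. These differences were larger than their spread over the sets, but an exact sign-flip test over 3 sets cannot give a two-sided p below 0.25. Averaged over its 4 probes Bcl2l1 stood at 0.13 ± 0.13 and was not called (adjusted p = 0.337, limma over genes). Which Bcl2l1 transcripts each probe detects is not given in the sources used here.

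Bcl2, the pro-survival gene that names the family, was not called on either of its 2 probes, both annotated to NM_009741. The first gave -0.09, -0.15 and -0.15 on the Cy5 arrays and -0.08, -0.25 and -0.21 on the Cy3 arrays, below 0 on 6 of 6 arrays, with a mean of -0.16 ± 0.06 (adjusted p = 0.22, limma). The second gave -0.26, -0.55 and 0.00 on the Cy5 arrays and 0.14, -0.09 and -0.14 on the Cy3 arrays, with a mean of -0.15 ± 0.15 (adjusted p = 0.276). The means were nearly equal but the second probe changed sign between arrays. Bcl2a1a exceeded the first Bcl2 probe by 1.98 to 2.21 on every array.

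Of the effectors among the members, only Bak1 was measured. Its probe (Y13231) gave -0.13, 0.47 and -0.14 on the Cy5 arrays and -0.08, 0.28 and -0.29 on the Cy3 arrays. Set 2 was above 0 in both orientations and sets 1 and 3 were below. The mean was 0.02 ± 0.32 (adjusted p = 0.941, limma), and without set 2 it was -0.16.

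Among the BH3-only members, Bcl2l11 encodes BIM, which binds all pro-survival proteins. The probe annotated to AF032459 gave 0.94, 0.29 and 0.42 on the Cy5 arrays and 0.57, 0.27 and 0.27 on the Cy3 arrays. All 6 arrays were above 0, set 1 was highest in both orientations, and the mean was 0.46 ± 0.26, 1.38-fold (adjusted p = 0.0167, limma). Without set 1 the mean was 0.31 and the probe was not called (adjusted p = 0.0895), nor was it without the Cy3 array of set 2 (adjusted p = 0.0535) or with zeros kept (adjusted p = 0.149).

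The second Bcl2l11 probe, annotated to NM_009754, gave 0.35, -0.46 and 0.18 on the Cy5 arrays and 0.94, 0.85 and 0.66 on the Cy3 arrays. The orientations did not overlap, at 0.02 ± 0.43 and 0.82 ± 0.15 (SD, n = 3 arrays). Its mean of 0.42 ± 0.22 was called (adjusted p = 0.0192, limma), but not with the 6 arrays as separate values (adjusted p = 0.0888), without set 1 (0.101), without the Cy3 array of set 2 (0.57) or of set 3 (0.116), or with zeros kept (0.139). Using the Cy5 arrays alone it stood at 0.02.

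Bad, which is held inactive by growth factor signalling, gave opposite calls. The probe annotated to L37296 gave 0.33, 0.38 and 0.12 on the Cy5 arrays and 0.63, 0.59 and 0.55 on the Cy3 arrays, above 0 on 6 of 6 arrays, and rose by 0.43 ± 0.08, 1.35-fold (adjusted p = 0.0072, limma). The Cy3 arrays were all higher than the Cy5 arrays, and the Cy5 arrays alone gave 0.27 without a call (adjusted p = 0.14), as did leaving out the Cy3 array of set 3 (0.36, adjusted p = 0.0794). It was called with zeros kept (adjusted p = 0.045), as among member probes was only Bcl2a1a (adjusted p = 0.0223).

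The other Bad probe, annotated to NM_007522, gave -0.65, -1.62 and -0.54 on the Cy5 arrays but 0.00, 0.14 and -0.04 on the Cy3 arrays. Only the Cy5 arrays were low. The mean of -0.45 ± 0.25 was called lower (adjusted p = 0.0168), but the Cy3 arrays alone stood at 0.04, and the call was lost without set 2 (-0.31, adjusted p = 0.0906) and with the 6 arrays as separate values (adjusted p = 0.13). Leaving out any 1 Cy5 array, or the Cy3 array of set 2, also ended it (adjusted p = 0.118, 0.407, 0.0967 and 0.102). L37296 exceeded NM_007522 on 6 of 6 arrays, by 0.88 ± 0.30, and the average of the 2 was -0.01 ± 0.11.

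Bid, which caspase-8 cleaves to carry death receptor signals to mitochondria, had 1 tested probe (U75506). It gave -0.10, -0.17 and -0.10 on the Cy5 arrays and -0.27, -0.56 and -0.14 on the Cy3 arrays. All 6 arrays were below 0, but the mean of -0.22 ± 0.13 was not called (adjusted p = 0.107, limma). The second Bid probe (NM_007544) was listed at 0 on 4 arrays, read -0.27 and 0.20 on the 2 arrays of set 3, and was not tested.

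Bbc3 encodes PUMA, a BH3-only protein induced by p53. Its probe (AF332560) gave -0.20, -0.36 and -0.45 on the Cy5 arrays and -0.13, -0.10 and -0.07 on the Cy3 arrays. It was below 0 on 6 of 6 arrays with a small spread between sets, at -0.22 ± 0.05, and was not called (adjusted p = 0.0929). The Mcl1 probe U35623 exceeded it by 0.59 to 1.25 on every array.

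**Figure D3:**
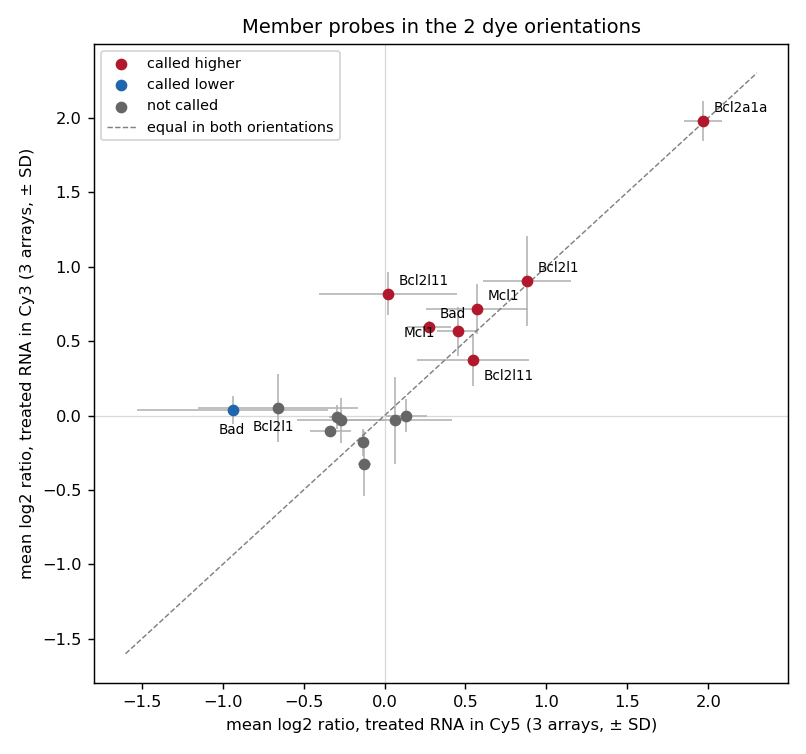
Mean log2 ratio of treated over untreated cells on the 3 arrays with treated RNA in Cy5 (horizontal) and in Cy3 (vertical) for the 16 tested member probes, with SDs as bars and the line of equal values dashed. Bcl2a1a (1.97 and 1.98) and the called Bcl2l1 probe (0.88 and 0.90) lie on the line, whereas NM_009754 of Bcl2l11 (0.02 and 0.82) and NM_007522 of Bad (-0.94 and 0.04) lie off it.

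The dye itself was tested on set means of the ratios before turning. No member probe was called for a dye effect, against 0.181% of all probes tested, while 5 of the 16 had an unadjusted p under 0.05, as had 26.3% of all probes tested. Among member probes the mean of the unturned ratios lay farthest from 0 for the Bad probe NM_007522, at -0.49 (adjusted p = 0.126, limma). Next came NM_009754 of Bcl2l11, where this mean was -0.40 (adjusted p = 0.109, limma). For Bcl2a1a it was -0.00 (adjusted p = 0.97).

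In a list of other BCL2 family genes, 5 of 17 tested probes were called higher and 0 lower (limma), with a median of 0.14. The list also took in Mtch2, Bnip2 and Becn1, which are not core members of the family, and no probe of these was called. At an unadjusted p under 0.05 (limma), 6 were higher and 1 lower. The share called in either direction was 29.4%, near the 27.1% of all probes tested. Besides Bcl2a1c and Bcl2a1d, the BH3-only gene Pmaip1, which encodes NOXA and acts on MCL1, rose on both probes, by 0.63 ± 0.31 and 0.61 ± 0.33 (adjusted p = 0.00604 and 0.00838). Both probes were highest in set 1, at 0.99 and 0.97 on the first and at 0.99 and 1.00 on the second. The pro-survival gene Bcl2l2 rose by 0.44 ± 0.07 on 1 probe (adjusted p = 0.00665), while its other probe (NM_007537) was listed at 0 on 5 arrays, read -1.80 on the Cy5 array of set 2 and was not tested. Pmaip1 and Bcl2l2 are named because they were called, a choice made after their values were seen. The lowest ratios were those of Bcl2l10 (-0.24 ± 0.09) and of 1 Hrk probe (-0.16 ± 0.07), and neither was called. Without set 1 the list had 8 calls.

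Genes that act downstream, from cytochrome c to the caspases and their inhibitors, gave 3 of 27 tested probes higher and 2 lower, with a median of 0.05. Called probes in either direction were 18.5% of this list, below the 27.1% of all probes tested. The highest were inhibitors of apoptosis: Birc3 at 0.81 ± 0.19 (adjusted p = 6.02e-04, limma) and 1 of 3 Birc2 probes at 0.51 ± 0.13 (adjusted p = 0.00435). The lowest were both probes of Birc5, which encodes survivin, a protein of dividing cells, at -0.81 ± 0.05 and -0.39 ± 0.18 (adjusted p = 2.42e-04 and 0.0187). Cycs (cytochrome c), Apaf1 and Casp9, which build the apoptosome, stood at 0.02 ± 0.11, 0.14 ± 0.17 and 0.13 ± 0.21 without a call, and are named for that role after their values were seen. The 5 calls became 3 without set 2, 3 without the Cy5 array of set 1 or of set 2, and 2 without the Cy3 array of set 2.

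The death receptor list, set upstream of Bid, held ligands, adaptors, Casp8 and an inhibitor as well as receptors. It had 8 of 16 probes higher and 0 lower (limma), with a median of 0.25. At an unadjusted p under 0.05 (limma), 9 were higher and 1 lower. The share called in either direction was 50%, against 27.1% of all probes tested. The death receptor Fas was highest, at 2.38 ± 0.09 and 2.07 ± 0.08 on its 2 probes, and the lowest of all their values was 1.79. Cflar, which encodes the caspase-8 inhibitor FLIP, rose by 0.98 ± 0.31 (adjusted p = 6.25e-04, limma). Casp8, whose product cleaves BID, rose by 0.30 ± 0.04 (adjusted p = 0.03). Both are named for their role next to Bid, after their values were seen. Casp8 read -0.26 on 1 array, a spread that the SD of set means does not show. The lowest probes were 1 of Fadd at -0.22 ± 0.13 and 1 of Tnfrsf1a at -0.08 ± 0.24, not called. The 3 Tnf probes are among the 8, and Tnf had also served to check the sign of the ratio. Tnfrsf1b, a TNF receptor gene, is among them too, at 1.53 ± 0.46 (adjusted p = 1.99e-04, limma). The share called is thus not a reading of death receptors alone.

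Of genes that regulate the members, 5 of 35 tested probes were higher and 3 lower, with a median of 0.03. Calls in either direction made up 22.9% of these probes, below the 27.1% of all probes tested. Ddit3, a stress transcription factor that acts on Bcl2l11, rose by 2.41 ± 0.25 (adjusted p = 2.01e-06, limma), and Mdm2, the ubiquitin ligase of p53, by 1.25 ± 0.12. Both probes of Huwe1, a ubiquitin ligase that marks MCL1 for degradation, fell, by 0.58 ± 0.17 and 0.49 ± 0.10 (adjusted p = 0.00296 and 0.00437). Ywhae belongs to the 14-3-3 proteins, which hold phosphorylated BAD, and 1 of its probes fell by 0.57 ± 0.35 (adjusted p = 0.0128). Its other probe was listed at 0 on 1 array and was not tested.

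**Figure D4:**
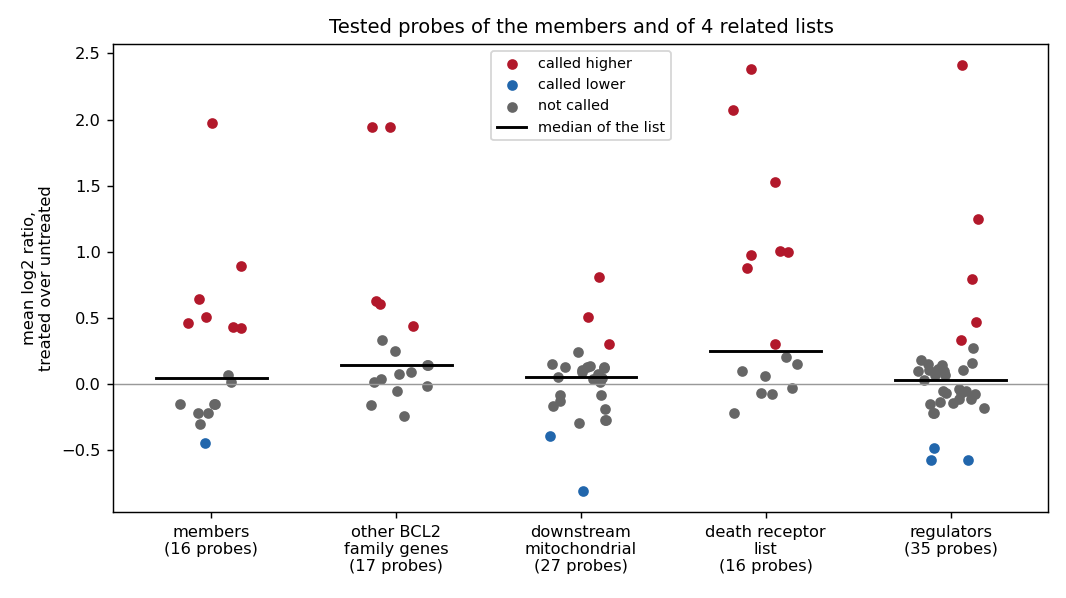
Mean log2 ratio of treated over untreated cells for every tested probe of the members and of the 4 related lists; red points were called higher, blue points lower, and black lines are list medians. The medians lie between 0.03 and 0.25, and the highest points are Fas and Ddit3 at 2.38 and 2.41.

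Markers of macrophages and of other cell types bear on the identity of the cells. Of 7 tested probes of macrophage markers, 2 rose and 1 fell: Adgre1 (0.94 ± 0.09) and 1 of 3 Ptprc probes (0.40 ± 0.01) rose, and Csf1r fell by 0.53 ± 0.22. Ptprc marks leukocytes in general and not macrophages alone. Of 11 tested probes for B cell, T cell, fibroblast and epithelial markers, 2 rose, Dcn by 2.68 ± 0.95 and Cd79a by 0.63 ± 0.11, and 0 fell (limma; 0 lower at an unadjusted p under 0.05). Their ratios ran from -0.08 to 2.68, and their part in the family's ratios was not tested. Ratios cannot show whether a marker is absent, so the labelled cell type could not be checked by level.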

How the data were processed

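RNA from both kinds of cells was compared on 6 two-colour arrays. The authors deposited 1 log ratio of Cy5 over Cy3 per probe and array, read here as log2. Neither base, background correction nor dye normalization is stated in the labels, and folds would be larger for a natural logarithm. Per the labels, Cy5 and Cy3 were swapped on 3 arrays, whose sign was turned. Arrays of 1 orientation correlated at 0.672 to 0.773 and opposite ones at -0.66 to -0.414, and Il1b, Il6, Tnf and Nos2, used to check the sign, had positive turned ratios on 6 of 6 arrays. Exact zeros (7.97% to 17.8% of an array) were treated as missing.

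Both orientations of a set were averaged, and limma 3.58.1 tested whether the mean of the 3 sets was 0 (R 4.3.3, lmFit and eBayes, two-sided), for the 12724 probes with 6 values. The prior had 6.33 degrees of freedom and the residuals 2. Adjusted p under 0.05 was a call. The labels do not say that sets were separate cultures, so p-values measure the spread between these sets, which may be technical. On simulated data the procedure recovered 34% of changes of 0.5, 84% of changes of 1 and 100% of changes of 2, with 3.05% of calls false. Changes of 0.5 were thus mostly missed in the simulation. Each size was given to only 50 of the 12724 probes, whereas 27.1% of all probes tested were called in the data. The simulated rates therefore need not hold for the data. The simulated noise was drawn for each array on its own, without any likeness within sets. All member probes, and the 2 highest and 2 lowest probes of each list, are named, and genes nearest to the leading member by root mean square difference. Members and lists were chosen with earlier results of these data known. The platform annotation named the probes, and all 17 member gene IDs were found in the RefSeq table with the same symbol. Promoter windows were aligned with Biopython's pairwise aligner. Alternatives covered zeros, averaging per gene, single orientations, scaling, robust eBayes and leaving out sets or arrays. The number of arrays limits the precision.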

Additional observations from a re-analysis of the deposited data

Results flagged for a closer look

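Within the 6 turned ratios of each member probe, 1 value stood far from the others. The Bid probe U75506 read -0.56 on the set 2 array with treated RNA in Cy3, where the next value was -0.27. That gap took 0.628 of the range of the 6 arrays, just above the critical value of Dixon's test. Chance alone flags about 1 in 20 such groups, and 16 member probes were examined.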

How the results depend on the processing

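With zeros kept as values, 2 member probes were higher and 0 lower (limma; 12 at an unadjusted p under 0.05), and the other family, downstream, death receptor and regulator lists had 3, 1, 5 and 5 calls, against 5, 5, 8 and 8. The called member probes hold no zeros, so their ratios were the same and their adjusted p-values differed. Averaged per gene, 3 members (Bcl2a1a, Mcl1 and Bcl2l11) were higher and 0 lower (5 at an unadjusted p under 0.05), and the other family and death receptor lists had 3 and 5 calls, over fewer features. With 6 arrays as separate values and no replicate block, 6 member probes were higher and 0 lower. With the set as a replicate block, 6 were higher and 0 lower and 2 had a dye call. The block correlation was -0.0436 for turned ratios, which shows no likeness within sets, and -0.718 for ratios before turning. Deviations from the group means correlated at 0.528, 0.0773 and 0.167 within sets 1, 2 and 3 and at -0.355 to 0.133 between sets. By these deviations all arrays but the Cy3 array of set 2 correlated best with their own set. This is a hint, not seen in the block correlation of turned ratios, that sets share more than a number, clearest in set 1. The labels do not say what a set shares, and the pairing was not taken as settled because set 2 stayed under 0.1. On the Cy3 arrays alone 0 member probes were lower. With 1 set or 1 array left out, 5 to 7 member probes were higher and 0 to 2 lower, and the other family list had 5 to 8 calls, the downstream list 2 to 7. Directions turned only for probes without a call, apart from Bad NM_007522 on the Cy3 arrays (0.0366). On those arrays Bcl2l1 U51279 stood at -0.0021, U51277 at 0.0508 and Bak1 at -0.031, and Bak1 ran from -0.1626 to 0.1347 with a set or array left out. Other settings left the member counts at 7 and 1, except 5 and 1 on the Cy5 arrays.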
